A study of Mus musculus with 24 samples.

Results

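Cathepsins are the proteases of the endosome and lysosome. Probes for 10 cathepsin genes (Ctsa, Ctsb, Ctsc, Ctsd, Ctse, Ctsh, Ctsl, Ctss, Ctsw and Ctsz) were followed in mouse CD4+ T cells on 24 Illumina MouseRef-8 v2 beadchips, which carry 25697 probes. Members were taken by gene symbol. The table lists 12 probes for 9 of these genes under their own symbols, and the tenth, Ctsa, stands there under its older name Ppgb with 4 probes, so that 16 probes of 10 genes were followed in all. A probe was kept where its detection p was 0.02 or less on at least 1 array, which left 14 probes of 9 cathepsin genes among 14246 probes of 10418 genes. A gene with several kept probes is described by the probe with the highest mean level. All levels are background-corrected, quantile-normalized log2 intensities, so a difference of 1 is a doubling, and they can be set against each other between arrays but not between genes.

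The study compared wildtype (WT) mice with mice that lack BAF180, the Pbrm1 product and a subunit of the PBAF chromatin remodelling complex, in T cells. The deficient mice carried floxed Pbrm1 alleles removed by a Cre transgene that acts during thymocyte development, so the deficient cells had matured without BAF180. The labels name Balb/c mice, 4 to 6 weeks old, whereas the methods describe a mixed background, and this difference cannot be settled here. Resting naive cells were a CD4+CD62L+ fraction of spleen and lymph node, sorted on columns to 95% purity. Stimulated naive cells had received plate-bound anti-CD3 (1 ug/ml) with anti-CD28 (2 ug/ml) for 24 h. Resting Th2 cells had been primed on the same antibodies with IL-4 (10 ng/ml), anti-IFN-gamma (10 ug/ml) and IL-2 (100 U/ml), and stimulated Th2 cells were those cultures after 1.5 h of PMA (50 ng/ml) with ionomycin (500 ng/ml). Each of the 8 groups has 3 arrays, labelled A, B and C, which the study derived from 3 pairs of mice.

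Most members (Ctsb, Ctsc, Ctsh, Ctsl, Ctss, Ctsw and Ctsz) are cysteine proteases of the papain family. Ctsd and Ctse are aspartic proteases and Ctsa is a serine carboxypeptidase. Cathepsins are made as inactive proenzymes and matured in acidic vesicles, and the cysteine cathepsins are held in check by cystatins and some serpins. In antigen-presenting cells cathepsins such as Ctss trim the invariant chain from MHC class II molecules, and in killer lymphocytes Ctsc (dipeptidyl peptidase I) activates the granzymes.

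Some results below turn on which bases a probe reads, so the first 30 of the 50 bases of those probes are shown. The coordinates are as the table lists them, without a named build. The first is a pair of Ctsz probes (listed at chr2:174070642-174070691 and chr2:174070639-174070688, minus strand), which share 48 bases and are shifted by 2, although their listed positions differ by 3. Capitals mark the shared run, and the pair is close to a repeat measurement of the same target.
Ctsz, brighter probe: ctGCATCCCGAGAGGAGACGGTAAAGGATG
Ctsz, dimmer probe: GCATCCCGAGAGGAGACGGTAAAGGATGAA
By contrast, the 3 Ctsc probes (chr7:88185882-88185931, chr7:88185676-88185725 and chr7:88185532-88185581, plus strand) lie apart on the transcript and are separate readings of the gene. They are shown because all 3 set the same WT replicate apart, as did the Ctse probe (chr1:133571795-133571844, listed on the plus strand) for another replicate letter.
Ctsc, probe 1: gcgatagccatggttgacctctgatccctg
Ctsc, probe 2: gctgtgcaagcaagaggacctgaggccaga
Ctsc, probe 3: gaatttttgtcacctacttcttcccttaga
Ctse: gatggcaagataaatacccacacacctctg

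The arrays detected between 8047 and 10689 probes each, and replicates of a group correlated at 0.95 to 0.99 over the kept probes. Pbrm1 was lower in the deficient cells in every state, by 1.01 to 1.86 on the log2 scale. It met the 4 criteria of the methods, applied here to limma results, each time. The groups did not overlap: Pbrm1 lay at 8.14 or above on all WT arrays and at 7.88 or below on all BAF180-deficient arrays. Markers of other cells were present in the resting naive preparations. All 10 kept myeloid and dendritic cell markers (of 18 listed) were detected on every resting naive array, with summed levels of 3782 to 12790 in WT and 4658 to 6935 in BAF180-deficient cells, against 50.4 to 172 in the 3 cultured states. In resting Th2 cells of either genotype Lyz2, Tyrobp, S100a8, S100a9 and Cd14 were detected on none of the arrays. B cell markers (11 of 14 kept) summed to between 5452 and 9352 in resting naive cells and to between 189 and 1689 in the cultured states. The resting naive WT replicate C array stood apart with the highest myeloid sum, and the haemoglobin and platelet markers summed to 12764 on it against 315 to 5994 on the other resting naive arrays. In these bulk samples fewer cells of a type and less RNA per cell cannot be told apart.

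Ctsb, Ctsh, Ctss and Ctsw fell when naive cells of either genotype were stimulated. In WT cells 5 of the 9 kept genes fell (Ctsa, Ctsb, Ctsh, Ctss and Ctsw) and none rose, where 21.9% of all genes fell and 23.3% rose (limma, adjusted p below 0.05). In BAF180-deficient cells 4 fell (Ctsb, Ctsh, Ctss and Ctsw), where 21.3% of all genes fell and 22.1% rose. The median difference of the 9 cathepsins was -1.22 in WT and -1.40 in BAF180-deficient cells on the log2 scale, beside -0.01 for all genes in either genotype. Ctsz and Ctsd had differences above 0 that did not pass. Both genotype-specific counts use the same model, and the difference between them was tested as an interaction, given further on.

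**Figure D1:**
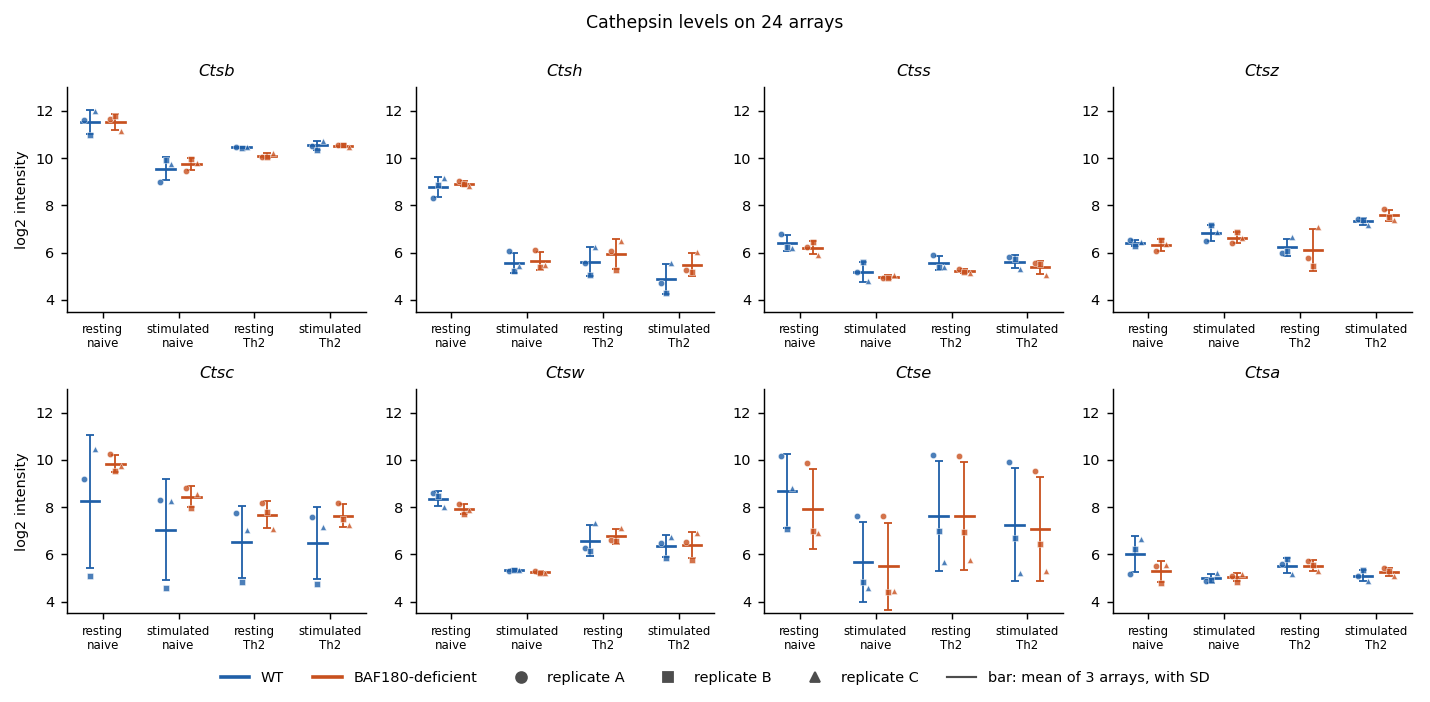
Log2 intensity (vertical axis) of 8 detected cathepsins in 4 cell states, WT in blue and BAF180-deficient in orange, with 1 point per array (circle, square and triangle for replicates A, B and C), the mean of 3 arrays as a bar and the SD as whiskers. Ctsb, Ctsh, Ctss and Ctsw are highest in resting naive cells, Ctsz is highest in stimulated Th2 cells, and the points of Ctsc and Ctse spread widely within groups.

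Ctsh, an aminopeptidase, had the largest difference of the cathepsins called. Its level in resting naive cells was 8.31, 8.87 and 9.14 in WT replicates A, B and C, and 9.04, 8.90 and 8.83 in BAF180-deficient replicates. After 24 h of stimulation the WT arrays read 6.05, 5.22 and 5.44 and the deficient arrays 6.10, 5.41 and 5.46. No stimulated array reached the lowest resting array. The log2 difference was -3.20 ± 0.36 (SE, n = 3 per group, 9.22-fold lower, limma adjusted p = 4.67e-07) in WT and -3.27 ± 0.36 (9.64-fold lower, limma adjusted p = 3.77e-07) in BAF180-deficient cells. The size depended on the processing: by Z-score normalization, without background correction or with an offset of 50, Ctsh was 5.62-fold to 5.98-fold lower in WT and 6.13-fold to 6.34-fold lower without BAF180, and still passed. Resting Th2 cells stayed low for Ctsh, at 5.58, 5.04 and 6.24 in WT and 6.05, 5.25 and 6.49 without BAF180.

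Ctsw, a cathepsin known chiefly from cytotoxic T and NK cells, fell on stimulation and was higher in resting Th2 than in stimulated naive cells. Resting naive levels were 8.60, 8.46 and 8.01 in WT and 8.13, 7.72 and 7.90 without BAF180. The 6 stimulated naive arrays lay between 5.20 and 5.36, all well below the resting arrays. The log2 difference was -3.03 ± 0.29 in WT (8.19-fold lower, limma adjusted p = 5.69e-08) and -2.68 ± 0.29 in BAF180-deficient cells (6.41-fold lower, limma adjusted p = 3.22e-07). Under the same 3 settings Ctsw was 4.79-fold to 5.12-fold lower in WT and 3.68-fold to 4.03-fold lower without BAF180. In resting Th2 cells Ctsw read 6.29, 6.13 and 7.35 in WT and 6.60, 6.55 and 7.13 in BAF180-deficient arrays, above every stimulated naive array. The summed level of the 7 kept CD8 T and NK cell markers was 390 to 859 in resting naive cells, 206 to 445 in stimulated naive cells and 85.2 to 374 in resting Th2 cells, and its part in the Ctsw values was not tested.

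Ctsb, a broadly expressed endopeptidase of lysosomes, was detected on all 24 arrays. It read 11.61, 10.98 and 11.98 in resting naive WT cells and 11.66, 11.77 and 11.16 in their BAF180-deficient counterparts. On stimulation the WT arrays moved to 8.99, 9.90 and 9.75 and the deficient arrays to 9.47, 9.98 and 9.79, a log2 difference of -1.98 ± 0.23 (3.93-fold lower, limma adjusted p = 7.7e-07) and of -1.79 ± 0.23 (3.45-fold lower, limma adjusted p = 2.92e-06). Ctss, the endopeptidase of antigen-presenting cells, had 6.79, 6.24 and 6.19 in resting naive WT cells and 5.18, 5.59 and 4.78 after stimulation. In BAF180-deficient cells it went from 6.25, 6.45 and 5.92 to 4.91, 4.91 and 5.07. The groups were separate in both genotypes, and the log2 differences were -1.22 ± 0.22 (limma adjusted p = 9.63e-05) and -1.25 ± 0.22 (limma adjusted p = 8.24e-05).

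Ctsa, the carboxypeptidase that also protects neuraminidase and beta-galactosidase in lysosomes, was called in WT cells alone. Its resting naive levels were 5.17, 6.23 and 6.67 in WT and its stimulated levels 4.85, 4.90 and 5.22, so that WT replicate A at rest lay within the stimulated range. The difference was -1.03 ± 0.28 (limma adjusted p = 0.00505) in WT and -0.24 ± 0.28 (limma adjusted p = 0.531) without BAF180. The interaction between genotype and stimulation for Ctsa was 0.79 ± 0.40 (limma unadjusted p = 0.0607), so a difference between the genotypes was not shown. When the resting and stimulated naive arrays were normalized and fitted on their own, the WT difference of -0.92 no longer passed (adjusted p = 0.0736).

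Several of these falls ran beside the loss of non-T-cell transcripts described above. All 10 kept myeloid and dendritic cell markers fell on stimulation in both genotypes, with a median of -3.50 in WT. All 10 genes of the MHC class II list (Cd74, H2-Aa, H2-Ab1, H2-Eb1, H2-DMa, H2-DMb1, H2-DMb2, H2-Oa, H2-Ob and Ciita) fell in both genotypes too, with a median of -2.93 in WT. Of all genes 21.9% fell in WT and 21.3% without BAF180. Lyz2, Tyrobp, S100a9 and Cd14 were detected on no array of the cultured states. They were kept through the resting naive arrays alone, so a fall was built into their selection. Ctsb, Ctsh, Ctss and Ctsw thus fell in samples in which these lists fell too. Within the resting naive WT arrays, replicate C had the highest myeloid sum and also the highest Ctsb, Ctsh and Ctsa levels, whereas its Ctss and Ctsw levels were the lowest of the 3. Without that array the stimulation difference was -1.75 for Ctsb, -3.02 for Ctsh, -1.33 for Ctss, -3.21 for Ctsw and -0.71 for Ctsa. Each still passed, with Ctsa at a limma adjusted p of 0.0437 and the others lower. Resting WT replicates A and B still had myeloid sums of 3782 and 4213, against 67.0 to 135 in stimulated naive WT cells. Leaving out replicate C therefore cannot separate other cells from the T cells. In resting Th2 cells, where the myeloid sum was 78.2 to 172, Ctsb still read 10.03 to 10.47. The part of other cells in the cathepsin levels was not tested.

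**Figure D2:**
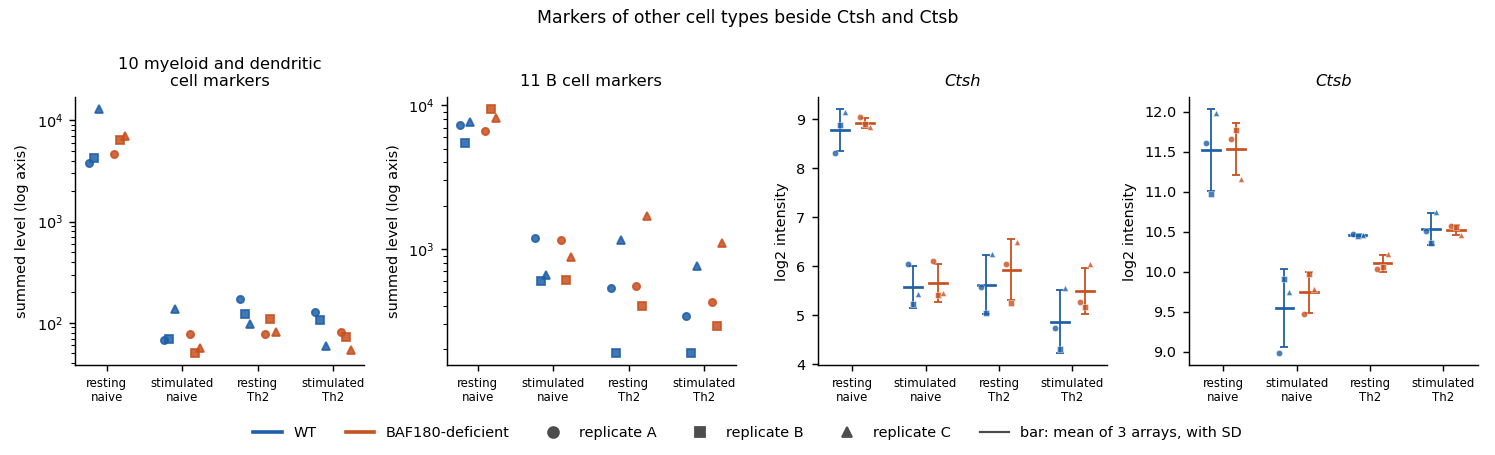
Summed level of 10 myeloid and dendritic cell markers and of 11 B cell markers (left panels, linear units with the offset removed, drawn on a log axis) beside the log2 intensities of Ctsh and Ctsb (right panels) in 4 states, WT in blue and BAF180-deficient in orange, 1 point per array, with mean and SD of 3 arrays in the right panels. The myeloid sum is at least 3782 on every resting naive array and at most 172 in cultured cells, where Ctsb stays between 8.99 and 10.74.

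Th2 culture left the same 4 genes below their naive levels. Between resting Th2 and resting naive cells Ctsb, Ctsh, Ctss and Ctsw were lower in WT (4 of 9 kept genes, where 17.6% of all genes were lower) and in BAF180-deficient cells (4 of 9, where 17.5% were lower), and no cathepsin was higher. This comparison shares the resting naive arrays with the previous one, so it is no independent view of them. Ctsh differed by -3.15 ± 0.36 in WT and -3.00 ± 0.36 without BAF180 (limma adjusted p = 1.04e-06 and 2.07e-06). Ctsw differed by -1.77 ± 0.29 in WT and -1.16 ± 0.29 without BAF180 (limma adjusted p = 9.02e-05 and 0.00442). Ctsb in resting Th2 cells was tightly placed, at 10.47, 10.44 and 10.46 in WT and 10.03, 10.06 and 10.23 in the deficient cells, or 2.09-fold and 2.69-fold below resting naive cells (limma adjusted p = 0.00131 and 7.39e-05). Ctss was 1.79-fold and 1.98-fold lower (limma adjusted p = 0.0048 and 0.0013).

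Set against 24 h stimulated naive cells, resting Th2 cells had higher Ctsw in both genotypes, by 1.26 ± 0.29 in WT and 1.52 ± 0.29 without BAF180 (limma adjusted p = 0.00334 and 0.0007). Ctsb was higher in WT by 0.91 ± 0.23 (limma adjusted p = 0.00659), while in BAF180-deficient cells the difference was 0.36 ± 0.23 (limma adjusted p = 0.339). Thus 2 of 9 cathepsins were called in WT, where 11.4% of all genes were higher, and 1 in BAF180-deficient cells, where 10.9% were. The WT call of Ctsb depended on stimulated naive WT replicate A, its lowest array at 8.99: without it the difference was 0.63 (limma adjusted p = 0.0588).

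**Figure D3:**
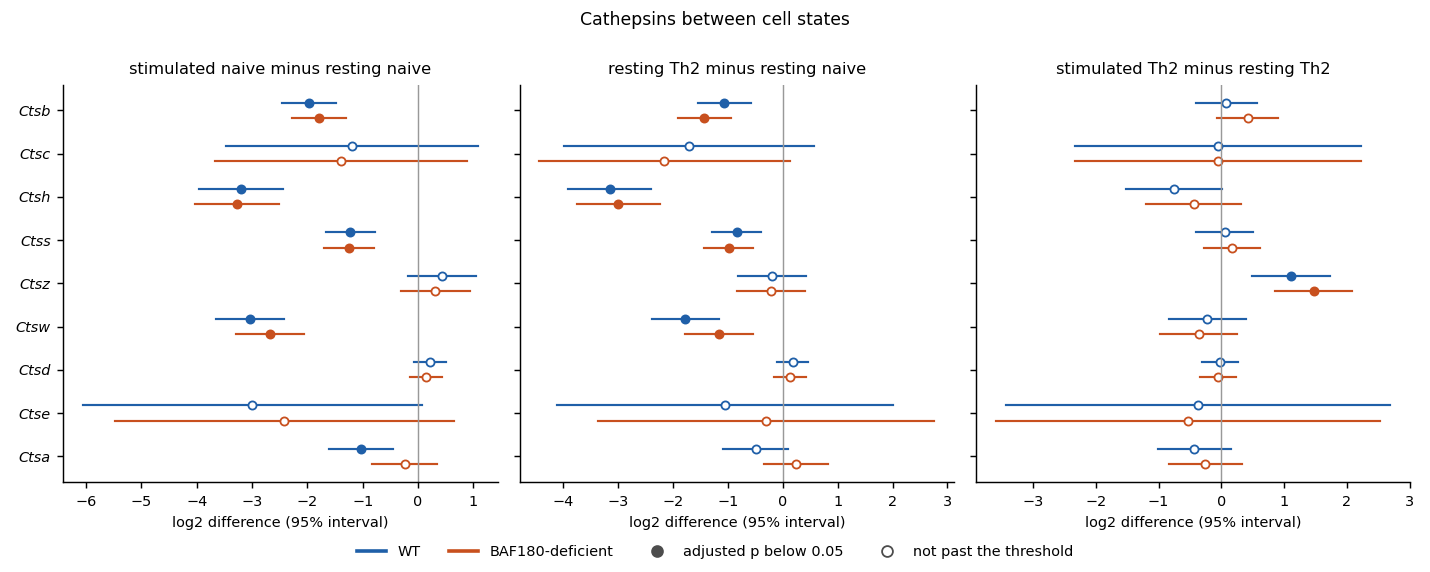
Log2 difference of 9 kept cathepsins between cell states (horizontal axis, point with 95% interval from the limma model on 24 arrays), WT in blue and BAF180-deficient in orange, with filled points for adjusted p below 0.05. Ctsb, Ctsh, Ctss and Ctsw lie below 0 in both comparisons with resting naive cells, and only Ctsz is called among stimulated Th2 cells, at 1.11 and 1.47.

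Ctsz, a carboxypeptidase that can also be secreted, was the cathepsin that rose when Th2 cells were restimulated. Resting Th2 levels were 5.96, 6.05 and 6.64 in WT and 5.77, 5.44 and 7.10 without BAF180. After 1.5 h of PMA and ionomycin they were 7.45, 7.38 and 7.17 in WT and 7.86, 7.49 and 7.38 without BAF180. Every restimulated array was above every resting Th2 array, although the deficient replicate C at rest came close. Ctsz was 2.16-fold higher in WT (log2 difference 1.11 ± 0.30, limma adjusted p = 0.00727) and 2.77-fold higher in BAF180-deficient cells (1.47 ± 0.30, limma adjusted p = 0.000818). Its overlapping second probe gave 1.33 ± 0.30 and 1.40 ± 0.30 (limma adjusted p = 0.00211 and 0.00149). The myeloid sum was 54.1 to 128 in restimulated and 78.2 to 172 in resting Th2 cells. Of its 10 markers 0 passed in this comparison, where 28.5% of all genes passed in WT and 27% in BAF180-deficient cells. Lyz2, Tyrobp, S100a8, S100a9 and Cd14 were detected on no Th2 array, so they could hardly pass in either direction. The part of other cells in the Ctsz values was not tested.

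Restimulation called no other kept cathepsin in either genotype (1 of 9 in each, where 12.5% of all genes rose in WT and 11.7% in BAF180-deficient cells). Ctsb went from a mean of 10.46 to 10.54 in WT and from 10.11 to 10.53 without BAF180 (limma adjusted p = 0.89 and 0.215). Ctsh moved by -0.75 ± 0.36 in WT (limma adjusted p = 0.142). For Ctsz the 2 probes parted on stimulation of WT naive cells, where the brighter probe gave 0.43 ± 0.30 (limma adjusted p = 0.266) and the dimmer 0.92 ± 0.30 (limma adjusted p = 0.018). Their readings differed mostly in resting naive WT cells, at 6.53, 6.26 and 6.44 for the brighter probe and 5.15, 5.48 and 6.31 for the dimmer.

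The 8 group means of each gene were also put in order. This uses the same arrays and fit, and the neighbours tested were picked by their means, so it is no second look at the differences above. For Ctsb, Ctsh, Ctss and Ctsw both resting naive groups came first and did not differ beyond their spread, and the step to the next group passed the test (limma adjusted p = 0.00139, 3.54e-06, 0.0305 and 0.00442 in that order). Ctsw had a further step between the Th2 groups and the stimulated naive groups (limma adjusted p = 0.0152). For Ctsa, Ctsc, Ctsd, Ctse and Ctsz no pair of neighbours in the order differed beyond the spread. Ctsl was detected on none of the 24 arrays, at 4.12 to 4.29, and Ctsd on 2 of 24, at 4.15 to 4.59, so neither was well above background. A Ppgb probe was likewise detected on no array.

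BAF180 loss called none of the kept cathepsins. By the 4 criteria of the methods (Z-ratio beyond 1.5, FDR below 0.3, p below 0.05 and positive mean signal) 0 of 9 genes passed in each state, where 0.758% of all genes passed at rest and 0.115% after stimulation in naive cells, and 0.106% and 0.096% in Th2 cells. The cutoffs were applied here to limma differences of the normalized levels, whereas the authors used Z-scores. These shares are therefore not the study's own counts. The signal criterion held for all 14246 kept probes. In single states, only Ctsa in resting naive cells had an unadjusted limma p below 0.05. No share of all genes is given for that limit, so nothing is concluded from it. Ctsa read 5.17, 6.23 and 6.67 in WT and 5.52, 4.77 and 5.54 without BAF180. The difference was -0.74 ± 0.28 (limma adjusted p = 0.594). The groups overlapped through WT replicate A. Without that array the difference was -1.17 and met the 4 criteria (limma adjusted p = 0.057). With all arrays, the dimmer kept Ctsa probes gave differences of -0.05 and -0.01.

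In resting Th2 cells 2 of the 9 cathepsins had genotype groups that did not overlap, where 10.3% of all genes did. Ctsb was lower without BAF180 by 0.35 ± 0.23 and Ctss by 0.35 ± 0.22, and neither passed (limma adjusted p = 1; exact permutation test, two-sided, p = 0.1 for each, the smallest that 3 arrays against 3 can give). Averaged over the 4 states, 0 of 9 genes passed at an adjusted p below 0.05, where 0.374% of all genes did. Only Ctss and Ctsc had an unadjusted limma p below 0.05, again with no share of all genes given, so nothing is concluded from that either. Ctss was lower by 0.25 ± 0.11 (limma adjusted p = 0.558) and Ctsc higher by 1.32 ± 0.55 (limma adjusted p = 0.525). The average treats all arrays as independent, although arrays of a letter may come from the same mice in different states. Its SE and p-values may therefore be too small. Apart from Ctsc and Ctse, the 95% intervals of the genotype differences in single states ran no lower than -1.32 and no higher than 1.38.

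**Figure D4:**
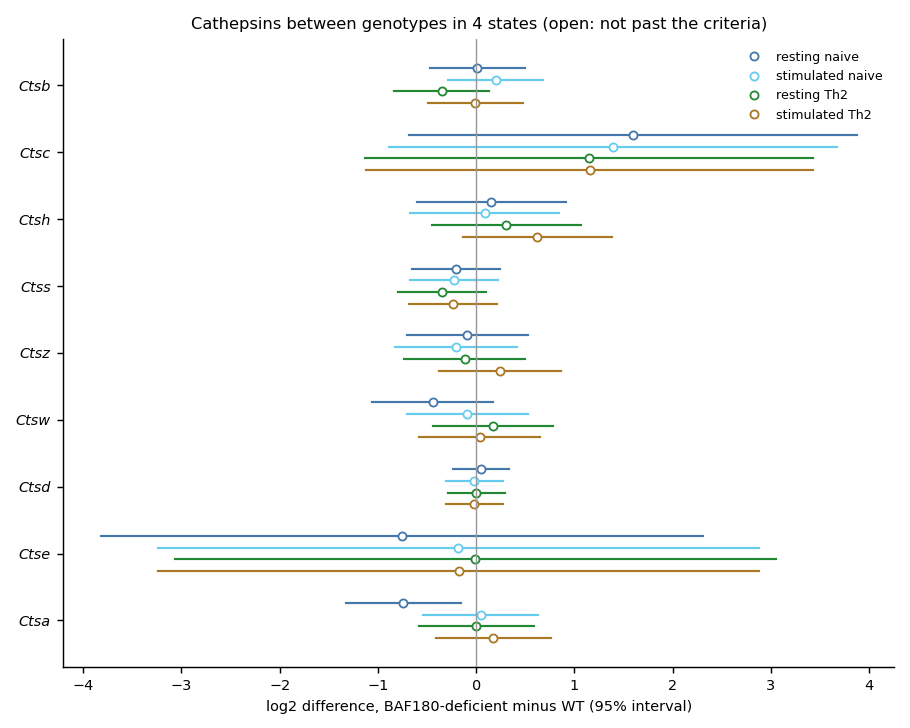
Log2 difference between BAF180-deficient and WT cells (horizontal axis, point with 95% interval) for 9 kept cathepsins, with 1 colour per cell state; no difference met the 4 criteria, so all points are open. The intervals of Ctsc and Ctse are the widest, and for 8 of the 9 genes every interval includes 0, the exception being Ctsa in resting naive cells.

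The change of a cathepsin between states was not shown to depend on BAF180. None of the 9 genes passed for the interaction of genotype with stimulation of naive cells, with restimulation of Th2 cells, with Th2 culture against naive cells or against stimulated naive cells, where 0.0096%, 0%, 0.0096% and 0% of all genes passed, and none had an unadjusted limma p below 0.05. The interaction for Ctsz on restimulation was 0.36 ± 0.42 with a 95% interval from -0.52 to 1.23.

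Ctsc and Ctse varied between replicates more than between genotypes. Ctsc, which in killer cells activates granzymes, was near background in WT replicate B in all 4 states, at 5.07 and 4.57 in naive cells (at rest and stimulated) and at 4.82 and 4.73 in Th2 cells. The other WT arrays read 9.20 and 10.46, 8.29 and 8.27, 7.75 and 7.05, and 7.57 and 7.15 in these states. BAF180-deficient arrays lay between 9.54 and 10.25 in naive cells at rest and between 7.96 and 8.81 after stimulation. In Th2 cells they lay between 7.09 and 8.18 at rest and between 7.23 and 8.19 after restimulation. The WT replicate B array was therefore the lowest of 6 in every state. The other Ctsc probes, whose sequences are given above, set the same arrays apart: the second read 4.30 to 4.62 and the third 4.47 to 4.71 in WT replicate B.

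Among all 14246 kept probes only 4 put WT replicate B lowest by more than 0.5 in every state, namely the 3 Ctsc probes and 1 for Picalm, a clathrin assembly gene. Picalm read 4.24, 4.53, 4.66 and 5.54 in WT replicate B over the 4 states, and 5.91, 5.82, 6.36 and 7.54 in WT replicate A. Both genes lie on chromosome 7 in the RefSeq table (GRCm38.p6) with 8 protein-coding genes between them. Of those, Hikeshi, Tmem135 and Eed had kept probes, and none of them put WT replicate B lowest by more than 0.5. No cause of the low Ctsc reading was tested.

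The genotype comparison of Ctsc rested on WT replicate B. With all arrays Ctsc was higher without BAF180 by at least 1.15 in each state, with intervals that included 0. Without WT replicate B the differences were 0.01, 0.16, 0.29 and 0.28 in the order of states given above, and the mean over states was 0.18 ± 0.20 (limma adjusted p = 1). Its change between states was likewise hidden by the spread: the stimulation difference was -1.20 ± 1.09 in WT (limma adjusted p = 0.411) and -1.40 ± 1.09 without BAF180, where the 3 stimulated arrays were all below the resting arrays (limma adjusted p = 0.333). With the replicate letter as a block, Ctsc passed as lower in resting Th2 than in resting naive BAF180-deficient cells (-2.15 ± 0.79, limma adjusted p = 0.0375). With a block for each letter within each genotype, a fit added after the data were seen, Ctsc passed in both genotypes. On stimulation the SE was 0.39 (limma adjusted p = 0.0196 in WT and 0.00792 in BAF180-deficient cells). In Th2 culture the differences were -1.71 and -2.15 (limma adjusted p = 0.00265 and 0.000381).

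Ctse, an endosomal aspartic protease, was highest in replicate A of both genotypes in all 4 states. Resting naive levels were 10.17, 7.06 and 8.80 in WT replicates A, B and C and 9.86, 6.98 and 6.92 in the deficient replicates. Resting Th2 levels were 10.21, 6.98 and 5.69 in WT and 10.17, 6.93 and 5.75 without BAF180. In resting Th2 cells the WT and deficient arrays of a letter thus lay close together, while the letters lay far apart. Only 1 other kept probe, for the MHC class I gene H2-T10 on chromosome 17, put both replicate A arrays highest by more than 0.5 in every state. Ctse lies on chromosome 1.

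**Figure D5:**
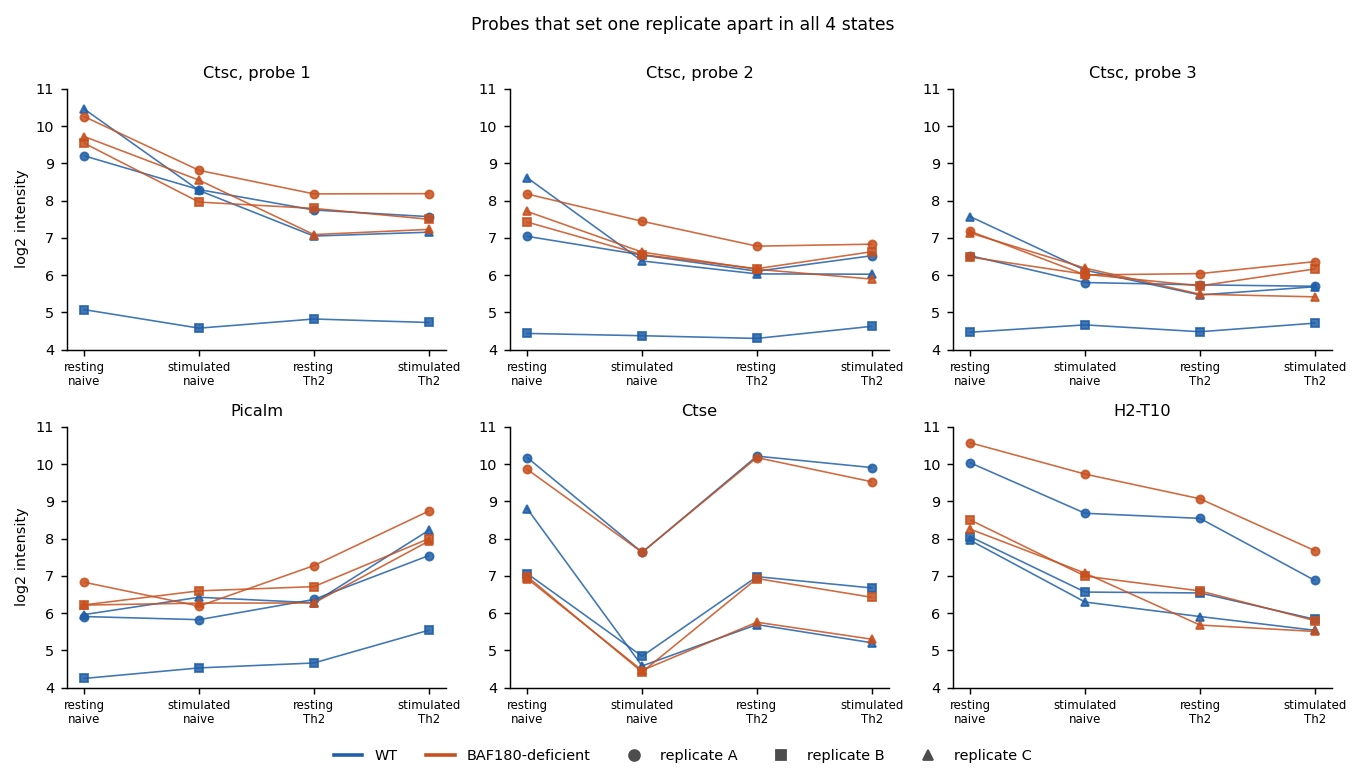
Log2 intensity (vertical axis) of the 3 Ctsc probes, Picalm, Ctse and H2-T10 in 4 cell states, WT in blue and BAF180-deficient in orange. Each genotype and replicate letter has 1 line (circle, square and triangle for replicates A, B and C). WT replicate B is the lowest line for Ctsc and Picalm in every state, and both replicate A lines are the highest for Ctse and H2-T10.

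Ctse was lower on every stimulated naive array than on the resting array of its own letter and genotype. Stimulated arrays read 7.63, 4.84 and 4.58 in WT and 7.63, 4.42 and 4.46 without BAF180, and 2 of the latter were not detected. The difference of -2.99 ± 1.47 in WT did not pass without the block (limma adjusted p = 0.107), nor did -2.42 ± 1.47 without BAF180 (limma adjusted p = 0.205). With the replicate letter as a block the SE was 0.46 and both passed (limma adjusted p = 2.44e-05 and 0.000241). Resting Th2 cells were then above stimulated naive cells by 1.94 in WT and 2.12 without BAF180 (limma adjusted p = 0.00366 and 0.00204), where the unblocked fit gave adjusted p = 0.426 and 0.387.

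Shares of the total variation over the 24 arrays place the members side by side. The cell state carried 91.7% of the variation of Ctsh, 89.9% of Ctsw, 86.7% of Ctsb, 75.5% of Ctss and 68.5% of Ctsz, where the median of all kept probes was 58.9%. For Ctse the state carried 26.4% and the replicate letter 66.2%, against a median of 4.44% for letters. For Ctsc the state carried 24.6%, and letter together with its interaction with genotype 52.2%, against a median of 8.07%. Ctsa had 33.9% in the state and 52.3% in what none of these terms held.

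By likeness of the 8 group means, Ctsh was closest to Impact, Rab33b and H2-Ab1 (Pearson r = 0.996, 0.995 and 0.995 over 8 means, among 7912 genes). Over the 24 arrays, which pool differences between and within groups, r was 0.83, 0.86 and 0.98. H2-Ab1 is an MHC class II beta chain. In resting Th2 cells of both genotypes Ctsh and the B cell marker sum had the same order of replicates, C above A above B. The sums were 1156, 538 and 189 in WT and 1689, 551 and 403 without BAF180. Ctsw had this order too. The B cell list includes Cd74 and H2-Aa, which are also in the MHC class II list. Its markers Ms4a1, Cd22, Fcer2a and Spib were detected on none of these arrays. The part of B cells in the Ctsh values was not tested. For Ctse the nearest were Casp1, Abca2 and Stx5a (r = 0.98 for each over 8 means, 0.49 to 0.57 over 24 arrays) and for Ctsc Adck5, Cyb5r3 and Daglb (r = 0.97, 0.96 and 0.93, and 0.40, 0.16 and 0.72 over 24 arrays). These correlations are descriptions over groups that share arrays and culture states.

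Other lysosomal genes moved in the same comparisons. Of 29 kept lysosomal hydrolases 18 fell and 2 rose on stimulation of WT naive cells, and 21 fell and 2 rose without BAF180, with medians of -0.72 and -0.87. Of all genes 21.9% fell and 23.3% rose in WT, and 21.3% fell and 22.1% rose without BAF180. Asah1, the acid ceramidase, went from a mean of 9.86 to 7.64 in WT (limma adjusted p = 3.83e-06), and Pla2g15, the lysosomal phospholipase, from 10.00 to 7.57 (limma adjusted p = 3.98e-07). In Th2 culture 10 hydrolases were lower and 4 higher in WT, where 17.6% of all genes were lower and 17.9% higher. Glb1, beta-galactosidase, was higher by 1.73 ± 0.21 (limma adjusted p = 1.92e-06). On restimulation of WT Th2 cells 8 of the 29 fell and none rose, where 15.9% of all genes fell and 12.5% rose, led by Smpd1, acid sphingomyelinase, at -1.65 ± 0.18 (limma adjusted p = 4.31e-07).

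Of 27 kept genes for lysosomal membrane, sorting and regulation 13 fell and 2 rose on stimulation in WT, where 21.9% of all genes fell and 23.3% rose, and 12 fell and 1 rose without BAF180. With no filter on dim probes the count that rose in WT was 1. Psap, the saposin precursor, fell from 11.81 to 8.43 in WT (limma adjusted p = 1.36e-09) and Grn, progranulin, from 8.84 to 6.01 (limma adjusted p = 3.37e-09). Cd68, also a macrophage marker, and Sort1, the sortilin receptor, went from 7.28 and 8.40 to 4.62 and 4.65. On restimulation of WT Th2 cells 4 of the 27 rose and 7 fell, where 12.5% of all genes rose and 15.9% fell. Among those that rose was M6pr, a mannose 6-phosphate receptor that carries lysosomal enzymes, by 1.86 ± 0.39 (limma adjusted p = 0.00102).

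The 11 kept genes that inhibit or process cathepsins did not move together. On stimulation of WT naive cells 3 fell and 2 rose, where 21.9% of all genes fell and 23.3% rose, with the same counts without BAF180. Lgmn, the legumain protease that processes cathepsins, fell by 3.37 ± 0.34 (limma adjusted p = 8.77e-08) and Cst3, cystatin C, by 1.18 ± 0.21 (limma adjusted p = 0.000126). The serpins parted: Serpinb6a fell by 2.78 ± 0.25 and Serpinb6b rose by 2.76 ± 0.31 (limma adjusted p = 2.54e-08 and 3.56e-07). In Th2 culture of WT cells Cst7, cystatin F, an inhibitor of Ctsc, was higher by 2.56 ± 0.25 (limma adjusted p = 1.4e-07), and Serpina3g differed by -3.68 ± 0.35 (limma adjusted p = 6.75e-08). On restimulation of WT Th2 cells 3 of the 11 rose and 2 fell, where 12.5% of all genes rose and 15.9% fell. Serpinb6b and Serpina3g rose by 3.01 and 2.27 (limma adjusted p = 2.53e-07 and 4.22e-05). No gene of these 3 lists met the 4 criteria between genotypes in any state. Averaged over states, 1 of them passed, Asah1, which was lower without BAF180 (limma adjusted p = 0.0143), where 0.374% of all genes passed. That average again treats arrays of different states as independent.

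RefSeq promoter windows (250 bases before to 50 after the start, GRCm38.p6) were at hand for 6 of the 10 genes, with 7 windows in all. They were searched on both strands for CACGTG, a palindrome and the core of the E-box bound by TFEB-type lysosomal regulators, which 7.15% of all 32851 windows hold, and for GAAA, any 2 bases and GAAA again, the core of an interferon-stimulated response element, which 3.44% hold. CACGTG was found in the windows of Ctsa (1 of 2 starts), Ctsd and Ctsl, and the GAAA pair in that of Ctss. A short run around a match is shown for a called gene of each kind, Ctss at chr3:95526755-95526784 and Ctsa at chr2:164833743-164833772, plus strand, with the motif in capitals.
Ctss: gtctttaaatGAAACCGAAAtgaaagttca
Ctsa: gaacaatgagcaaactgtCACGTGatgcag
Such a match describes the letters of the window and is no evidence of binding in these cells.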

How the data were processed

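The authors hybridised biotin-labelled cRNA to MouseRef-8 v2 beadchips and deposited non-normalized intensities with detection p-values, exported with GenomeStudio (version 1.6.0 per the submitters' processing notes). The deposited intensity values were not background-subtracted: the lowest on an array was 25.8 to 30.3. From these, limma 3.58.1 in R 4.3.3 estimated the background from the detection p-values, corrected it (neqc, offset 16), quantile-normalized and took log2. Groups came from the labels. All 24 arrays entered 1 model of 8 group means (16 residual degrees of freedom, 20.3 after moderation), with Benjamini-Hochberg adjustment over kept probes. Genotype comparisons in single states used the cutoffs of the 4 criteria of the methods on the limma results, the others adjusted p below 0.05. Percentages of all genes use the brightest probe of each of 10418 genes. The members and lists were chosen with earlier results of these data known. From each companion list only genes among the 4 with the largest WT difference that passed were named; Asah1 between genotypes was named after its value was seen. Replicate letters were read as pairs of mice, since the methods name 3 pairs, but the labels do not state this. WT and deficient arrays of a letter deviated together to differing degrees (pooled r = 0.30 for A, 0.14 for B and 0.52 for C). In single states r ran from 0.05 to 0.65 for A, from -0.003 to 0.25 for B and from 0.35 to 0.66 for C. The tests were tried on simulated data. Precision is limited by 3 arrays per group, and the median SE of a genotype difference was 0.19. No slide was used as a batch. Alternatives are listed in the closing section. No authors' comparison columns were used.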

Additional observations from a re-analysis of the deposited data

How the results depend on the processing

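Counts of called cathepsins and 31 of the cathepsin differences were recomputed under other settings, and none of these 31 changed sign. Differences of single companion genes were not recomputed. By the 4 criteria of the methods in place of adjusted p below 0.05, the counts became 3 for stimulation in WT, 2 for Th2 culture in each genotype, and 1 for resting Th2 against stimulated naive cells in WT. With the replicate block (letters A, B and C), as with the within-genotype block, resting Th2 against stimulated naive cells without BAF180 gave 2 calls. It changed no call beyond those of Ctsc and Ctse given above. With array weights, whose estimation stopped before it converged, restimulation gave 2 calls in either genotype and resting Th2 against stimulated naive cells without BAF180 gave 4. With only the arrays compared, restimulation without BAF180 gave 2. Leaving out single arrays, the counts ranged from 0 to 1 for genotype in resting naive cells (1 without WT replicate A), from 1 to 2 for restimulation in WT (2 without stimulated WT replicate C), from 1 to 2 for resting Th2 against stimulated naive cells in WT (1 without stimulated naive WT replicate A) and from 1 to 2 for it without BAF180 (2 without resting Th2 replicate C). Z-score normalization, no background correction, an offset of 50, no filter, a stricter filter, no moderation and calling a gene by any probe moved no count of cathepsins by over 1.5 times. Folds did move by more: beside those of Ctsh and Ctsw on stimulation, Ctsh in Th2 culture of WT cells was 5.24-fold to 5.81-fold lower by Z-score normalization, without background correction or with an offset of 50. By Z-score normalization, without BAF180, Ctss was 1.55-fold lower on stimulation, and in Th2 culture Ctsb was 4.05-fold, Ctsh 5.10-fold and Ctss 1.31-fold lower. Each of these still passed. The planned slide block was not run, because the header names no slide. Signal over background limits Ctsd and Ctsl, and 3 arrays per group limit every difference. In stimulated naive cells Ctsa, Ctss and Ctsw were detected on every array but read only 4.78 to 5.59, not far above Ctsd.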

Other observations

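Of 13 listed granzymes and other cytotoxic granule genes, 6 were kept over the 24 arrays. Granzymes are substrates of Ctsc in killer cells. On restimulation of WT Th2 cells Srgn, the granule proteoglycan serglycin, rose by 2.25 ± 0.30 (limma adjusted p = 7.57e-06) and Nkg7, a granule membrane protein, by 2.08 ± 0.47 (limma adjusted p = 0.00198), and none of the 6 fell, where 12.5% of all genes rose and 15.9% fell. In Th2 culture of WT cells 4 of the 6 were lower and 1 higher, where 17.6% of all genes were lower and 17.9% higher, with Nkg7 going from a mean of 8.63 in resting naive to 5.96 in resting Th2 cells and Prf1, perforin, from 8.35 to 7.18 (limma adjusted p = 0.000162 and 0.000314). Of 13 cathepsins outside the 10 members, Ctsm and Ctsr were kept, detected on 3 and 7 of 24 arrays, and no comparison called either of them.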
